A study of Homo sapiens with 8 samples.

Results

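The transcripts described here are those of 3 ERBB receptors (EGFR, ERBB2 and ERBB3) and 7 ligands of the epidermal growth factor (EGF) family (AREG, EREG, HBEGF, TGFA, BTC, EPGN and NRG1). They are the 10 of 60617 genes in a deposited count table whose Ensembl identifiers map to those symbols. All 10 had enough reads to be tested, among 17693 tested genes. The cells were MCF-10A, an established line of non-tumorigenic epithelial cells from the human breast, in a pair of versions labelled Empty and NeuT. The labels do not say what NeuT cells carry. That name often stands for an activated rat counterpart of ERBB2, and the ERBB2 row described here is that of the human gene. How reads of such a rat transcript would have been assigned to that row is not known here, so its level may not be that of the cells' own gene alone. Cells of each version were left untreated or were given 1 µM JG-98, an inhibitor of Hsp70 chaperones, for 12 h. This gave 4 groups of 2 libraries: untreated Empty, Empty with JG-98, untreated NeuT and NeuT with JG-98. All groups were grown in 5% horse serum with 20 ng/mL EGF and 10 µg/mL insulin, hydrocortisone and cholera toxin, so a ligand of EGFR was in the medium of every library. The labels do not say whether replicates came from separate cultures, or whether either version of the line was a single clone. The p-values below therefore measure only the spread between these libraries, which may be technical.

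ERBB receptors are receptor tyrosine kinases that signal as pairs. EGF, amphiregulin (AREG), transforming growth factor alpha (TGFA) and epigen (EPGN) bind EGFR, while heparin-binding EGF-like growth factor (HBEGF), betacellulin (BTC) and epiregulin (EREG) bind EGFR and ERBB4, and neuregulin 1 (NRG1) binds ERBB3 and ERBB4. ERBB2 has no known ligand of its own and serves as a partner, and ERBB3 has little kinase activity of its own and signals through its partners. The ligands are made as membrane-anchored precursors that metalloproteases such as ADAM17 release, and mammary epithelial cells in culture depend on EGFR signalling to proliferate.

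Total counts were 37341458 in replicate 1 of Empty with JG-98, against 55050996 to 56861971 in the other 7 libraries. Levels are given as CPM, read counts scaled to a common library size, and as CPM per kilobase of annotated exon where genes are compared with each other. The summed level of 5 basal markers was 14800 to 15400 CPM in Empty libraries and 15300 to 16400 CPM in NeuT libraries, and that of 5 epithelial markers was 3650 to 3860 CPM and 4090 to 4290 CPM. Within these lists the markers differed in direction between the untreated lines, with log2 fold changes of 0.54 for KRT5, -0.35 for KRT17 and 1.45 for TP63, which lay at 2.70 to 3.65 against 7.26 to 9.44 CPM. EPCAM lay at 196 to 223 CPM in Empty and 93.5 to 101 CPM in NeuT libraries. The reverse order held for CDH1, at 873 to 905 against 992 to 1180 CPM, and KRT18, at 662 to 746 against 878 to 977 CPM. The libraries of KRT8 and KRT19 overlapped between the lines. CDKN2A, which is deleted in MCF-10A, had 2 counts in all libraries together. The 7 fibroblast or mesenchymal markers summed to 19.7 to 21.7 CPM in Empty and 81.3 to 96.8 CPM in NeuT libraries. The Empty sum was mostly CDH2 and COL1A1, and the NeuT sum mostly DCN, at 2.47 to 3.58 CPM in Empty against 62.4 to 77.5 CPM in NeuT. VIM was also higher in NeuT, at 0.228 to 0.705 against 2.36 to 4.20 CPM, while CDH2 lay at 10.6 to 11.9 against 8.89 to 10.6 CPM. COL1A1 lay at 4.86 to 5.72 and 4.70 to 5.83 CPM, and PDGFRA had 3 counts in all. The 4 leukocyte markers summed to 5.01 to 6.99 and 10.7 to 12.3 CPM, nearly all CD14, while PTPRC had 8 and CD3E 2 counts in all. The 3 endothelial markers summed to 10.6 to 15.1 and 8.29 to 9.94 CPM, mostly PECAM1, and CDH5 lay at 0.0511 to 0.123 against 0.296 to 0.621 CPM. The 4 hormone-receptor luminal markers summed to 65.1 to 65.8 and 57.1 to 61.1 CPM. Among them FOXA1 lay at 20.7 to 21.4 against 14.4 to 17.0 CPM, ESR1 at 13.6 to 14.9 against 11.3 to 12.8 CPM and GATA3 at 28.9 to 31.5 against 30.0 to 32.1 CPM. PGR had 11 counts in all. The part of all these markers in the differences between the lines was not tested. Fewer cells of a type and less RNA per cell cannot be told apart in such bulk libraries.

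Among the transcripts of the family, AREG was the most abundant per kilobase in each of the 4 groups. In untreated Empty cells it had a mean of 130 CPM per kilobase, above 98.4% of tested genes. EPGN followed at 56.0, EGFR at 29.6, TGFA at 17.0, HBEGF at 11.7 and ERBB2 at 8.17 CPM per kilobase. ERBB3 had 3.58, EREG 2.07, BTC 1.53 and NRG1 0.446 CPM per kilobase, and NRG1 stood above 27.4% of tested genes. The libraries of no neighbouring members in this order overlapped. In untreated NeuT cells AREG had a mean of 562 CPM per kilobase, above 99.7% of tested genes. EPGN at 46.7, HBEGF at 35.1, EGFR at 34.9, TGFA at 30.4 and ERBB2 at 8.60 CPM per kilobase came next, and the libraries of HBEGF and EGFR overlapped. EREG at 4.74 CPM per kilobase was above ERBB3 at 2.34, the reverse of their order in Empty cells, with BTC at 1.86 and NRG1 at 0.620 last. These positions were per kilobase; in CPM without length, EGFR was the highest member in both Empty groups and AREG in both NeuT groups.

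**Figure D1:**
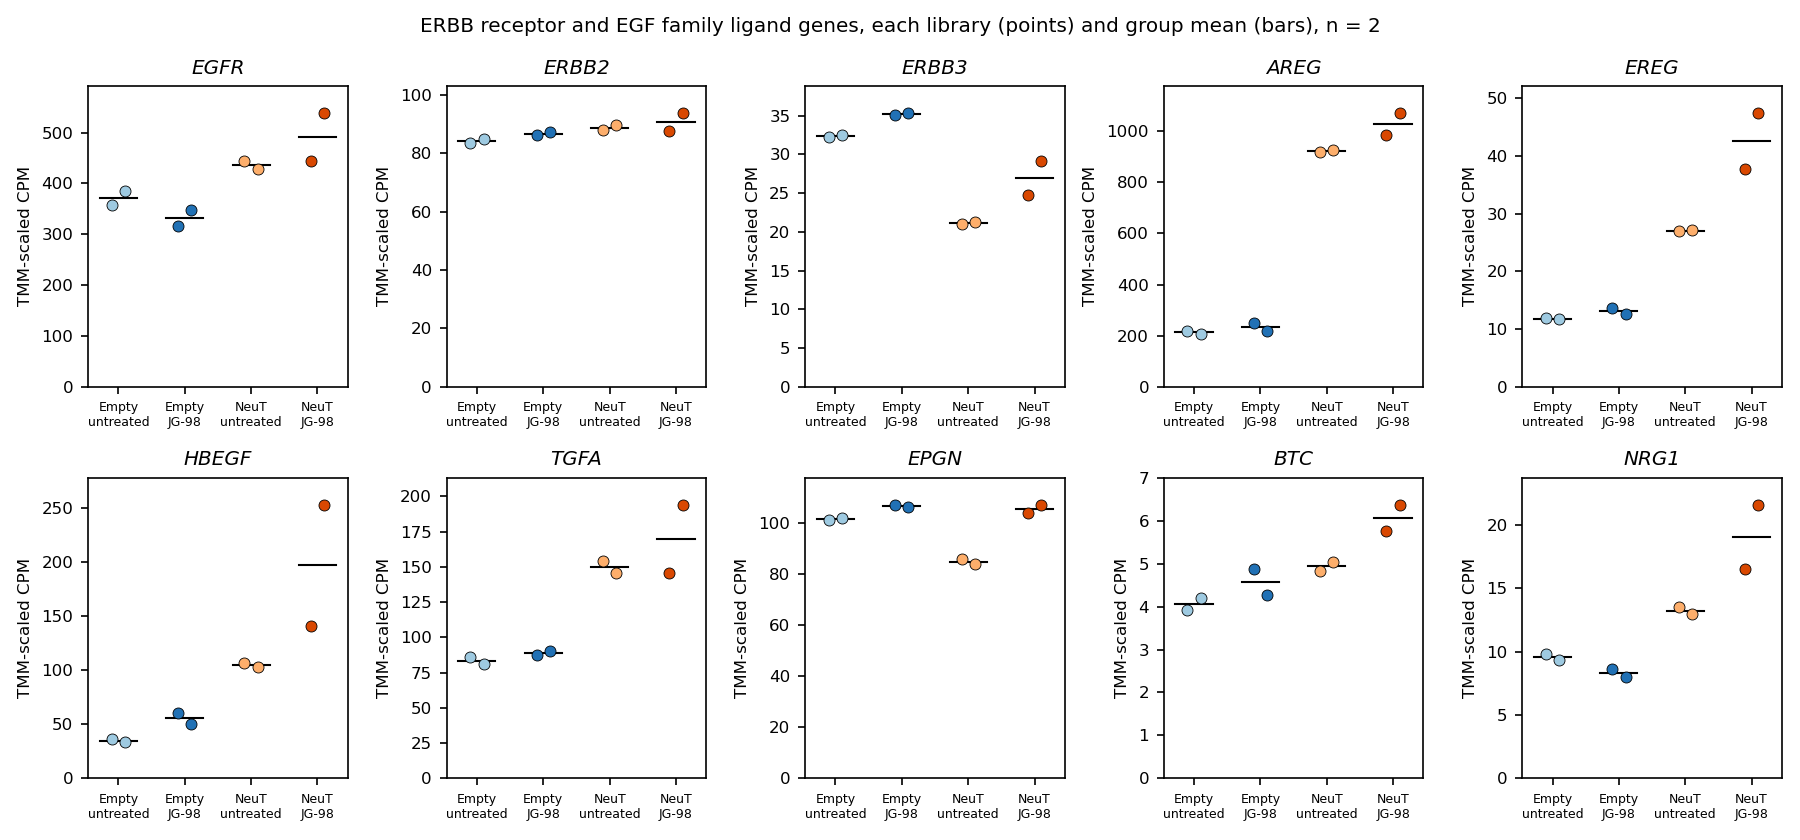
Level of each of the 10 transcripts in each of the 8 libraries, in CPM on axes that start at 0, with the 4 groups side by side and a bar at the mean of each group. EGFR, AREG, EREG, HBEGF, TGFA and NRG1 lay higher in all 4 NeuT libraries than in all 4 Empty libraries, and ERBB3 lay lower. ERBB2 also lay higher, by little, at 83.7 to 87.2 CPM in Empty and 87.8 to 93.7 CPM in NeuT libraries.

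The untreated NeuT and Empty libraries were compared first. The ligands AREG, EREG, HBEGF, TGFA and NRG1 and the receptor EGFR were higher in NeuT, ERBB3 and EPGN were lower, and ERBB2 and BTC did not pass the test. The test was edgeR's quasi-likelihood test with Benjamini-Hochberg adjustment over all tested genes, and a gene was called where the adjusted p was under 0.05. Thus 8 of the 10 members were called, against 42.0% of all tested genes. Of the members, 6 were called higher and 2 lower, against 21.2% and 20.8% of all tested genes. The median log2 fold change was 0.38 over the members and -0.02 over all tested genes.

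Of the receptors, EGFR, which binds EGF and most of the other ligands, had 357 and 385 CPM in untreated Empty and 445 and 429 CPM in untreated NeuT libraries. Both NeuT libraries were above both Empty libraries, by a log2 fold change of 0.24 (SE 0.080, adjusted p = 0.0283). That call was lost with total counts as the scaling (log2 fold change 0.17, adjusted p = 0.101). It was also lost without untreated Empty replicate 1 (adjusted p = 0.195), untreated NeuT replicate 1 (0.135) or untreated NeuT replicate 2 (0.0584). ERBB3, the neuregulin receptor, had 32.2 and 32.5 CPM in untreated Empty and 21.0 and 21.3 CPM in untreated NeuT libraries. All NeuT libraries were below all Empty ones, and the level fell by 0.62 on the log2 scale (SE 0.081, adjusted p = 1e-05), which is 1.53-fold. ERBB2, the receptor without a known ligand, had 83.7 and 84.9 CPM in untreated Empty and 87.9 and 89.7 CPM in untreated NeuT libraries. The groups did not overlap, but the log2 fold change of 0.07 (SE 0.058) did not pass the test (adjusted p = 0.329). Of ERBB2's exon bases, 6.93% overlap genes on the opposite strand (MIEN1 and PGAP3), and whether the counting used strand is not given in the sources used here.

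The abundance of EGFR relative to the other receptors followed from these values. Per kilobase, EGFR was 3.51 and 3.74 times ERBB2 in untreated Empty and 4.18 and 3.94 times ERBB2 in untreated NeuT libraries. It was 8.0 and 8.54 times ERBB3 in untreated Empty and 15.3 and 14.6 times ERBB3 in untreated NeuT libraries. With JG-98 the ratio of EGFR to ERBB3 per kilobase was 6.52 and 7.11 in Empty and 13.0 and 13.4 in NeuT libraries, so each NeuT library had a higher ratio than each Empty library. Genes with a profile close to that of EGFR over the 8 libraries included BNC1 and TSC1, at distances of 0.0931 and 0.124. Distance here is the Euclidean distance between log2 CPM values centred on each gene's mean, over 12747 genes. For ERBB3 the 3 nearest genes were MPP7, USP54 and AMIGO2 at 0.149 to 0.156, and for ERBB2 they were PLEKHB2, DUS2 and CHRAC1 at 0.0644 to 0.0696. Such likeness is a description of 8 libraries.

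Of the ligands, AREG had 219 and 208 CPM in untreated Empty and 919 and 927 CPM in untreated NeuT libraries. The group means were 214 ± 7.9 and 923 ± 5.8 CPM (SD, n = 2 libraries), a 4.32-fold difference and the largest in size among the 10 members (log2 fold change 2.11, SE 0.065, adjusted p = 3.61e-13). EREG, which binds EGFR and ERBB4, had 11.9 and 11.7 CPM in untreated Empty and 27.0 and 27.1 CPM in untreated NeuT libraries. It was 2.29-fold higher (log2 fold change 1.20, SE 0.10, adjusted p = 4.34e-08). HBEGF had 36.1 and 33.8 CPM in untreated Empty and 107 and 103 CPM in untreated NeuT libraries, with no overlap. HBEGF had a log2 fold change of 1.58 with the largest standard error of the members (0.32, adjusted p = 0.0189). Leaving out any 1 of the 4 untreated libraries gave an adjusted p of 0.0680 to 0.0983 for HBEGF, with a log2 fold change of 1.54 to 1.63. Without replicate 2 of NeuT with JG-98 it was 1.86e-11, the lowest of the leave-one-out values. The SE of HBEGF came from a spread shared by all groups, and its libraries in NeuT with JG-98 lay at 141 and 253 CPM.

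TGFA had 85.9 and 80.8 CPM in untreated Empty and 154 and 146 CPM in untreated NeuT libraries, a 1.79-fold difference (log2 fold change 0.84, SE 0.11, adjusted p = 9.35e-05). NRG1, the ligand of ERBB3 and ERBB4, was the least abundant member per kilobase and was higher in NeuT, at 13.5 and 13.0 CPM against 9.78 and 9.33 CPM. The NRG1 log2 fold change was 0.47 (SE 0.12, adjusted p = 0.00345), opposite in sign to that of its receptor ERBB3. BTC, which binds EGFR and ERBB4, had 3.93 and 4.21 CPM in untreated Empty and 4.82 and 5.05 CPM in untreated NeuT libraries. These did not overlap, but the log2 fold change of 0.28 (SE 0.14) did not pass the test (adjusted p = 0.124). EPGN was the member of the EGFR ligands that was lower, with 101 and 102 CPM in untreated Empty and 85.8 and 83.7 CPM in untreated NeuT libraries. It fell by 0.26 on the log2 scale (SE 0.055, adjusted p = 0.000978), or 1.20-fold. The calls of ERBB3, AREG, EREG, TGFA, EPGN and NRG1 in this comparison held under all 17 alternative settings.

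**Figure D2:**
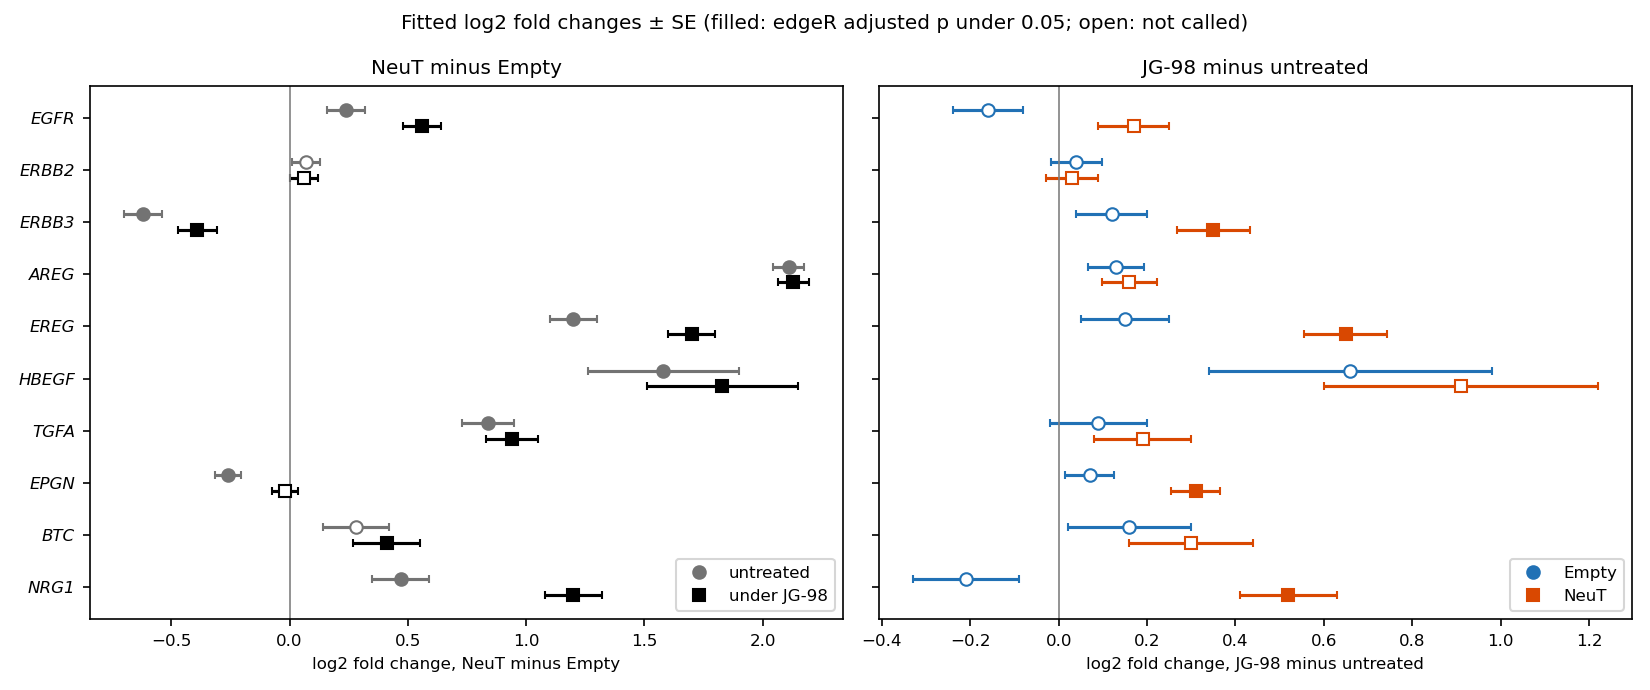
Fitted log2 fold change of each of the 10 transcripts (x axis) with its standard error as a bar, in the comparisons of NeuT with Empty and of JG-98 with no treatment; filled points passed an adjusted p under 0.05. AREG stood at 2.11 in untreated and 2.13 in JG-98-treated cells, while its changes with JG-98 were 0.13 and 0.16.

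The genes of 4 of the ligands, EPGN, EREG, AREG and BTC, lie together on chromosome 4. In the coordinates of the count table (GRCh38) EPGN spans chr4:74308473-74315307, EREG chr4:74365145-74388749 and AREG chr4:74445136-74455005 on the plus strand, and BTC spans chr4:74744759-74794523 on the minus strand. The 4 genes fit within 486 kb, with gaps of 49.8 kb between EPGN and EREG, 56.4 kb between EREG and AREG, and 290 kb between AREG and BTC. Despite this proximity their differences between untreated NeuT and Empty were unlike in size and sign. From EPGN to BTC the log2 fold changes were -0.26, 1.20, 2.11 and 0.28. The other genes of the table within this interval numbered 2, ENSG00000250532 and ENSG00000249942, and had 8 and 54 counts in all libraries together.

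**Figure D3:**
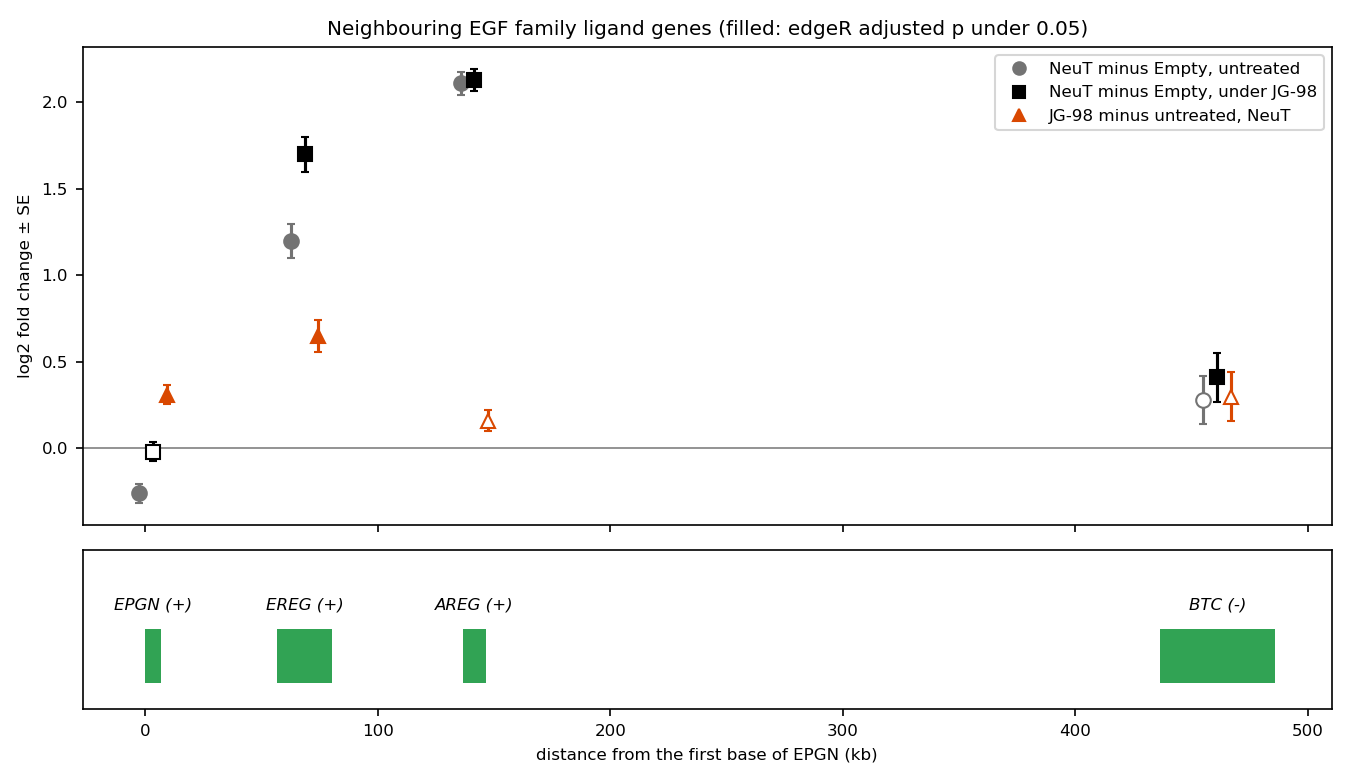
Position of EPGN, EREG, AREG and BTC on chromosome 4 in kb from the start of EPGN (lower panel), under their fitted log2 fold changes with SE bars between NeuT and Empty, untreated and with JG-98, and between JG-98 and untreated in NeuT; filled points passed an adjusted p under 0.05. AREG and EREG, which neighbour each other, stood above 1 in both comparisons of the lines, and EPGN, next to EREG, stood at -0.26 and -0.02.

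The 250 bases that precede the transcription start of these 4 genes and of HBEGF are printed for the contrast between the ligands that rose most in NeuT and their neighbours EPGN and BTC. They are RefSeq promoter sequences of GRCh38.p14, read 5′ to 3′ on the strand of the gene. Capitals mark matches to the motifs searched on both strands, which were a cyclic AMP response element (TGACGTCA), an AP-1 site (TGA and TCA around any 1 base), a TATA box (TATAAA) and an ETS site (CCGGAAGT).
AREG, chr4:74444886-74445135, plus strand: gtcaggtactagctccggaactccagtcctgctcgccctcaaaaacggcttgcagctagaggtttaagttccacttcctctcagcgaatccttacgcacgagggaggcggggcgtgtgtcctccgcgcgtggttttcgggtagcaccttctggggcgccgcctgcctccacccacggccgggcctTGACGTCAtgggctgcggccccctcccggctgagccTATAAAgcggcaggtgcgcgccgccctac
EREG, chr4:74364895-74365144, plus strand: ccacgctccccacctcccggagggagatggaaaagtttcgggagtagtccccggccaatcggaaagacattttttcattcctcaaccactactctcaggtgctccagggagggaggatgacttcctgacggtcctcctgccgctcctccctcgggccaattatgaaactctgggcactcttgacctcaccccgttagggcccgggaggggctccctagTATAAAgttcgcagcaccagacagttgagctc
EPGN, chr4:74308220-74308469, plus strand: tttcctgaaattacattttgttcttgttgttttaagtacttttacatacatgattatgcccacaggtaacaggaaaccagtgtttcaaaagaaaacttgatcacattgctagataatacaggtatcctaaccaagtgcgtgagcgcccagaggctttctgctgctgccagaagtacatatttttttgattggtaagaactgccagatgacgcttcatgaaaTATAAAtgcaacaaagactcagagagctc
BTC, chr4:74794524-74794773, minus strand: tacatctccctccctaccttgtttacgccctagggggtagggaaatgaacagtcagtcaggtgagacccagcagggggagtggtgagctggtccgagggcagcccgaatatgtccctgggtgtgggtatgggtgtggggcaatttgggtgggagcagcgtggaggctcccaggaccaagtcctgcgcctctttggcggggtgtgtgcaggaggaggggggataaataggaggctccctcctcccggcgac
HBEGF, chr5:140346604-140346853, minus strand: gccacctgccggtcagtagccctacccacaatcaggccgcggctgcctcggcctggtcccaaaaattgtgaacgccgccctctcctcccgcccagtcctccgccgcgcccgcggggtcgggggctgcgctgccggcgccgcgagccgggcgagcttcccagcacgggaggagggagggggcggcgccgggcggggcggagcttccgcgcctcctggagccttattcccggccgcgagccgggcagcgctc
The AREG window holds a cyclic AMP response element whose match begins 65 bases before the start, and a TATA box 29 bases before it. The former motif is present in 1.65% of 35116 RefSeq windows of this length. The motifs were chosen with these sequences in view, so such shares do not measure how unusual a match is. EREG and EPGN each hold a TATA box, at 32 and 29 bases before the start, as do 10.7% of windows. No letters of the 4 motifs were found in the BTC and HBEGF windows. An AP-1 site is in 6.57% and an ETS site in 3.42% of windows, and neither is in any of the 5 printed sequences. Among the members not printed, the ERBB2 window holds 1 AP-1 and 2 ETS matches, 1 of the EGFR windows holds 2 AP-1 and 2 TATA matches, and the TGFA windows hold none. The share of G and C was 65.2% for AREG, 58.0% for EREG, 38.0% for EPGN, 62.0% for BTC and 76.4% for HBEGF. So the TATA box is in the windows of AREG and EREG, which were higher in NeuT, and of EPGN, which was lower. For EGFR, also higher, the matches are in chr7:55109589-55109838, inside the gene, which begins at chr7:55019017. The EGFR window just before that base, chr7:55018767-55019016, holds none of the 4 motifs. Of the 10 members, 8 had an entry in the promoter table, which did not include ERBB3 and NRG1.

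The comparison of NeuT with Empty was repeated among the cells that had received JG-98. AREG, EREG, HBEGF, TGFA, BTC, NRG1 and EGFR were higher in NeuT, ERBB3 was lower, and ERBB2 and EPGN did not pass the test. Thus 7 members were called higher and 1 lower by edgeR's quasi-likelihood test, against 21.7% and 20.0% of all tested genes (41.7% in either direction). The median log2 fold change was 0.75 over the members and -0.0011 over all tested genes. AREG had 249 and 220 CPM in Empty and 987 and 1070 CPM in NeuT libraries with JG-98, 4.39-fold apart (log2 fold change 2.13, SE 0.065, adjusted p = 2.89e-13). EREG had 13.6 and 12.7 CPM in Empty and 37.8 and 47.4 CPM in NeuT libraries, 3.25-fold apart (log2 fold change 1.70, SE 0.10, adjusted p = 5.48e-10). NRG1 had 8.61 and 8.0 CPM in Empty and 16.5 and 21.6 CPM in NeuT libraries, 2.30-fold apart (log2 fold change 1.20, SE 0.12, adjusted p = 3.39e-07). The NeuT libraries of these 3 ligands did not overlap those of Empty.

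HBEGF had 60.7 and 50.1 CPM in Empty and 141 and 253 CPM in NeuT libraries with JG-98 (log2 fold change 1.83, SE 0.32, adjusted p = 0.0114). Its adjusted p was 0.0804 in a fit of those 4 libraries alone and 0.0660 without replicate 2 of Empty with JG-98. TGFA had 87.5 and 90.1 CPM in Empty and 146 and 194 CPM in NeuT libraries (log2 fold change 0.94, adjusted p = 4.13e-05). EGFR had 317 and 348 CPM in Empty and 444 and 538 CPM in NeuT libraries, 1.48-fold apart (log2 fold change 0.56, SE 0.080, adjusted p = 5.87e-05). ERBB3 had 35.1 and 35.3 CPM in Empty and 24.7 and 29.1 CPM in NeuT libraries, and fell by 0.39 on the log2 scale (adjusted p = 0.000868). Both NeuT libraries of TGFA and EGFR were above, and both of ERBB3 below, the Empty libraries.

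BTC was 1.33-fold higher in NeuT, at 5.77 and 6.37 CPM against 4.88 and 4.28 CPM (log2 fold change 0.41, SE 0.14, adjusted p = 0.0248). The BTC call was lost with total counts (adjusted p = 0.0617), with DESeq2 (0.0521), in a fit of the 4 libraries alone (0.0507), and without replicate 2 of Empty with JG-98 (0.174) or replicate 2 of NeuT with JG-98 (0.129). EPGN, lower in untreated NeuT, had 107 and 106 CPM in Empty and 104 and 107 CPM in NeuT libraries with JG-98, which overlapped. Its log2 fold change there was -0.02 (SE 0.055, adjusted p = 0.798). ERBB2 had 86.3 and 87.2 CPM in Empty and 87.8 and 93.7 CPM in NeuT libraries (log2 fold change 0.06, adjusted p = 0.406).

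The summed level of the 7 ligand transcripts and the share of each were computed per library from CPM per kilobase. The sum was 223 and 215 in untreated Empty, 253 and 232 in Empty with JG-98, 681 and 682 in untreated NeuT, and 745 and 846 CPM per kilobase in NeuT with JG-98. AREG made up 59.9% and 59.0% of the sum in untreated Empty and 82.2% and 82.8% in untreated NeuT libraries. EPGN made up 25.1% and 26.1% in untreated Empty and 6.95% and 6.77% in untreated NeuT libraries. The EPGN share was thus lower in NeuT by more than its own transcript level was, as the sum itself was larger there. With JG-98 the AREG share was 59.9% and 57.8% in Empty and 80.7% and 77.0% in NeuT libraries. HBEGF made up 5.42% and 5.27% in untreated Empty and 5.24% and 5.05% in untreated NeuT libraries, and with JG-98 8.0% and 7.22% in Empty and 6.33% and 9.99% in NeuT libraries. The HBEGF share was thus higher in each treated library than in each untreated library. These shares are a description of the 8 libraries and were not tested. An exact permutation test of 2 libraries against 2 cannot give a two-sided p under 0.333.

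**Figure D4:**
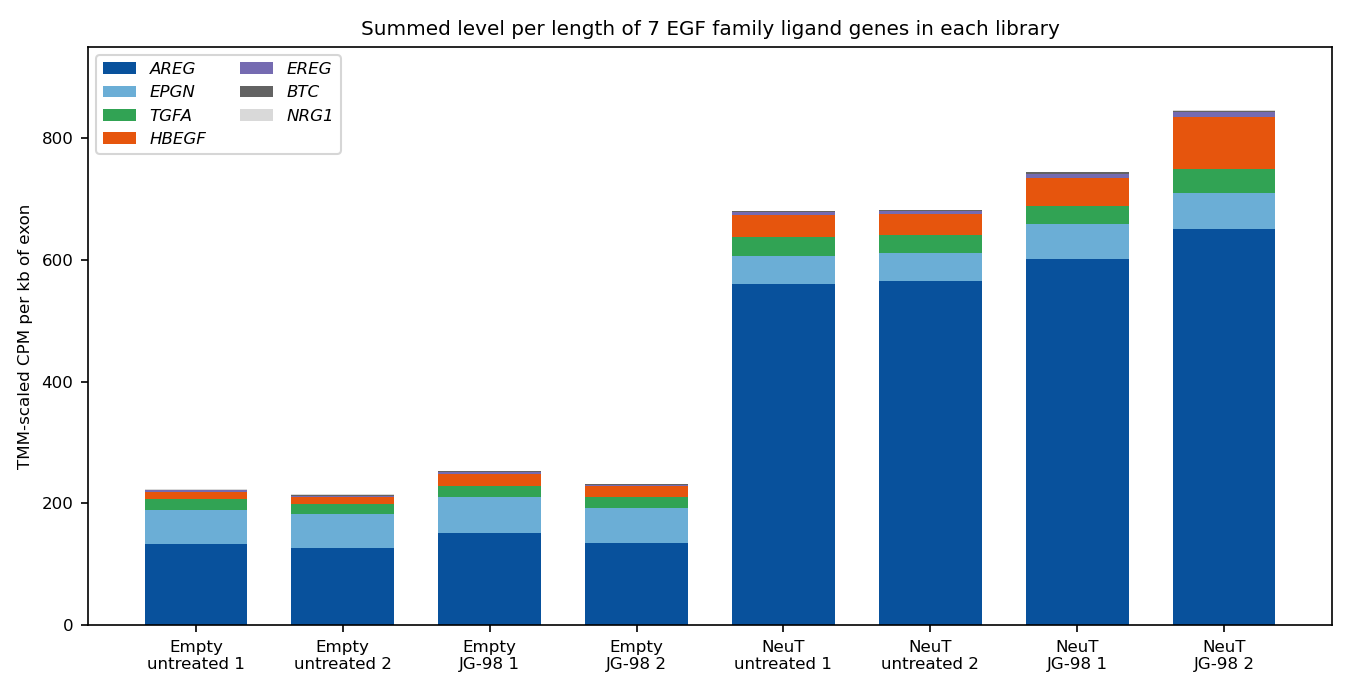
Summed level of the 7 ligand transcripts in CPM per kilobase in each of the 8 libraries (y axis), stacked by ligand. The 4 NeuT bars reach 681 to 846 and the 4 Empty bars 215 to 253, and AREG fills 77.0% to 82.8% of the former and 57.8% to 59.9% of the latter.

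JG-98 was then compared with no treatment within each line. The sample titles name no vehicle for the untreated cells, so an effect of the inhibitor cannot be told apart from one of its solvent or of handling. In Empty cells no member was called by edgeR's quasi-likelihood test, where 0.339% of all tested genes were called (0.260% higher and 0.0791% lower). That excess of higher over lower was reversed without either untreated Empty replicate or without replicate 1 of Empty with JG-98. The unadjusted p was under 0.05 for 1 member, AREG, and for 9.83% of all tested genes. DESeq2 and limma-voom also called 0 members, each with 1 member, HBEGF, at an unadjusted p under 0.05, near the 7.79% and 9.50% of all tested genes with these tools. AREG had 219 and 208 CPM untreated and 249 and 220 CPM with JG-98, and its log2 fold change was 0.13 (adjusted p = 0.499). HBEGF had 36.1 and 33.8 CPM untreated and 60.7 and 50.1 CPM with JG-98, so both treated libraries were above both untreated ones. Its log2 fold change of 0.66 (SE 0.32, 1.58-fold) was the largest of the members and had an adjusted p of 0.609. The HBEGF difference passed the test in a fit of the 4 Empty libraries alone (adjusted p = 0.000322), and without replicate 1 (0.000167) or replicate 2 (0.000105) of NeuT with JG-98. Over the alternatives that adjusted p ranged from 0.000105 to 0.946. The other members had log2 fold changes from -0.21 for NRG1 to 0.16 for BTC.

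In NeuT cells JG-98 was accompanied by higher levels of EREG, NRG1, ERBB3 and EPGN. These 4 of the 10 members were called higher and none lower by edgeR's quasi-likelihood test, where 3.01% of all tested genes were called (2.01% higher and 1.01% lower). All 10 members had a positive log2 fold change, with a median of 0.30 against 0.00021 over all tested genes. In NeuT with JG-98, replicate 2 was above replicate 1 for all 10 members, by 0.04 on the log2 scale for EPGN to 0.84 for HBEGF. The members' results that changed side of the threshold when 1 of these libraries was left out are given with those values.

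EREG had 27.0 and 27.1 CPM in untreated NeuT and 37.8 and 47.4 CPM in NeuT with JG-98 libraries, with both treated libraries higher. Its log2 fold change was 0.65 (SE 0.094, adjusted p = 0.000751), 1.57-fold, and its call held under all alternatives, with values from 0.47 to 0.81. NRG1 had 13.5 and 13.0 CPM untreated and 16.5 and 21.6 CPM with JG-98 (log2 fold change 0.52, SE 0.11, adjusted p = 0.0177). The NRG1 call was lost in a fit of the 4 NeuT libraries alone (adjusted p = 0.0903), without untreated NeuT replicate 1 (0.136) or 2 (0.233), and without replicate 2 of NeuT with JG-98 (log2 fold change 0.31, adjusted p = 0.193). ERBB3 had 21.0 and 21.3 CPM untreated and 24.7 and 29.1 CPM with JG-98 (log2 fold change 0.35, SE 0.082, adjusted p = 0.0267). The ERBB3 call was lost in a fit of the 4 NeuT libraries alone (adjusted p = 0.135) and without either untreated Empty replicate (0.0632 for each), replicate 2 of Empty with JG-98 (0.0501), untreated NeuT replicate 1 (0.231) or 2 (0.241), or replicate 2 of NeuT with JG-98 (log2 fold change 0.22, adjusted p = 0.223). EPGN had 85.8 and 83.7 CPM untreated and 104 and 107 CPM with JG-98 (log2 fold change 0.31, SE 0.055, adjusted p = 0.00382). The EPGN call was lost without untreated NeuT replicate 1 (adjusted p = 0.0739) or 2 (0.137). With JG-98, EPGN in NeuT stood at 105 ± 2.2 CPM, and untreated Empty cells had 102 ± 0.21 CPM (SD, n = 2 libraries each).

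HBEGF, which had the largest log2 fold change with JG-98 in NeuT, did not pass the test. It had 107 and 103 CPM untreated and 141 and 253 CPM with JG-98 (log2 fold change 0.91, SE 0.31, adjusted p = 0.275). Both treated libraries were above both untreated ones, and the treated replicates differed by 0.84 on the log2 scale. HBEGF passed with limma-voom (adjusted p = 0.0230), without robust estimation of the spread (0.0141), without replicate 1 of NeuT with JG-98 (log2 fold change 1.27, adjusted p = 7.74e-08) and without its replicate 2 (0.42, adjusted p = 0.0114). Over all alternatives its adjusted p ranged up to 0.655, and it was lowest, at 2.49e-26, with a block of crossed replicate numbers that was chosen after seeing the data. In the authors' deposited table for NeuT, HBEGF had a log2 fold change of 0.85 with an adjusted p of 0.0219. That table had 5 of the 10 members at an adjusted p under 0.05, which were HBEGF, EREG, EPGN, NRG1 and ERBB3, and 525 of its 17698 genes in all. The authors' deposited table for Empty had 0 of the 10 members and 48 of 17698 genes under 0.05, and HBEGF there had a log2 fold change of 0.68 (adjusted p = 0.279).

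AREG had 919 and 927 CPM in untreated NeuT and 987 and 1070 CPM in NeuT with JG-98, where its log2 fold change of 0.16 (SE 0.062) did not pass the test (adjusted p = 0.220). The libraries of EGFR, ERBB2 and TGFA with JG-98 overlapped the untreated ones, with log2 fold changes of 0.17, 0.03 and 0.19. BTC had 4.82 and 5.05 CPM untreated and 5.77 and 6.37 CPM with JG-98 (log2 fold change 0.30, adjusted p = 0.295). Without replicate 1 of NeuT with JG-98, EGFR (log2 fold change 0.30, adjusted p = 0.00181), AREG (0.21, adjusted p = 0.0211) and TGFA (0.37, adjusted p = 8.28e-05) passed the test along with HBEGF. The number of members called there was 8, in a fit that called 2112 of the 17693 tested genes, against 533 with all libraries.

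The difference between the changes with JG-98 in NeuT and Empty cells was tested as an interaction. edgeR's quasi-likelihood test called 0 of the 10 members, where 0.00565% of all tested genes were called. DESeq2 and limma-voom also called 0 members. In each of the 3 tools 4 members, EPGN, EREG, EGFR and NRG1, had an unadjusted p under 0.05, as had 7.79% of all tested genes with edgeR, 5.76% with DESeq2 and 7.74% with limma-voom. NRG1 had the largest difference, 0.73 on the log2 scale (SE 0.17, adjusted p = 0.312), with log2 fold changes of 0.52 in NeuT and -0.21 in Empty cells. EREG differed by 0.50 (SE 0.14, adjusted p = 0.457), EGFR by 0.33 (SE 0.11, adjusted p = 0.546) and EPGN by 0.24 (SE 0.077, adjusted p = 0.509). The AREG difference was 0.02 (SE 0.088, adjusted p = 0.972). Without the filter on low counts NRG1 (adjusted p = 0.00115), EGFR (0.0172) and EREG (0.0186) passed. Without replicate 1 of NeuT with JG-98 the interaction passed for NRG1 (adjusted p = 0.000853), EGFR (0.00185), EREG (0.00231), HBEGF (0.00684) and TGFA (0.0386). EREG, NRG1, ERBB3 and EPGN, called with JG-98 in NeuT and not in Empty cells, are therefore not shown to differ in their response between the lines in the fit of all libraries.

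The ligands were also set beside the genes with the most similar profile over the 8 libraries. For AREG these were BMP2, SLC6A15 and LCN2, at distances of 0.175 to 0.270. For EREG they were ICAM1 at 0.106, PID1 and ZNF697, and for TGFA they were MAP4K4, PPARD and WDFY2 at 0.134 to 0.158. For HBEGF they were FAM110C, DUSP10 and DUSP5, at 0.525 to 0.573, the largest distances among the 10 members. This distance also grows with the size of a gene's differences. The correlation r with these 3 genes was 0.982 to 0.988 for HBEGF. For ERBB2, whose nearest genes were at the smallest distances, r was 0.857 to 0.874. For EPGN they were EIF5, IARS1 and EIF4B at 0.0893 to 0.116. For NRG1 they were DLC1, ABTB1 and BACH1 at 0.267 to 0.302, and for BTC they were SNX24, MARK3 and PNPLA8 at 0.128 to 0.144. No member was among the 3 nearest genes of another member. The closest members to each other were ERBB2 and EPGN, at 0.414.

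Of the other genes of the family, ERBB4, NRG3, EGF and NRG2 had few counts in both lines. ERBB4, a receptor for neuregulins and for some EGFR ligands, had 0 to 6 counts per library, and NRG3 had 0 to 6, and neither was tested. A count of 0 in 1 library allows up to 3 counts, 0.0528 to 0.0803 CPM depending on the library. EGF had 6 to 19 and NRG2 4 to 14 counts per library. NRG4, another neuregulin, had 63 to 172 counts, and its level in untreated Empty, 0.499 CPM per kilobase, was above that of NRG1 at 0.446. In untreated NeuT the order was the reverse, with 0.446 for NRG4 and 0.620 CPM per kilobase for NRG1. In CPM without length NRG1 was above NRG4 in both, at 9.55 against 2.50 CPM in untreated Empty and 13.3 against 2.24 CPM in untreated NeuT. The order per kilobase in Empty thus rests on the annotated exon length of NRG1, 21398 bases over all its exons. None of EGF, NRG2 and NRG4 was called by edgeR in any comparison with all libraries. Without replicate 1 of NeuT with JG-98, NRG4 passed the test with JG-98 in NeuT (log2 fold change -0.94, adjusted p = 0.0330) and between the lines under JG-98 (-1.10, adjusted p = 0.00329).

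Genes that act on the release of the ligands were next described. Of 6 such genes, all tested, 5 were called higher in untreated NeuT and 0 lower, against 21.2% and 20.8% of all tested genes, with a median log2 fold change of 0.42 against -0.02 over all tested genes. RHBDF2, an inactive rhomboid protein that carries ADAM17 to the cell surface, had 27.0 and 26.7 CPM in untreated Empty and 57.1 and 59.7 CPM in untreated NeuT libraries. RHBDF2 thus had a log2 fold change of 1.12 (adjusted p = 1.18e-09). FRMD8, a binding partner of these rhomboid proteins, and RHBDF1 followed at 0.55 (adjusted p = 3.43e-06) and 0.48 (adjusted p = 2.5e-05). ADAM17, the protease itself, was 0.34 higher (adjusted p = 0.000733). TIMP3, an inhibitor of ADAM17 that opposes release, was also called higher, at 0.36 (adjusted p = 3.67e-05). ADAM10, another protease, was the gene of the list that was not called, at 0.06 (adjusted p = 0.398). With JG-98 the same number, 5 of 6, were called higher in NeuT than in Empty, where 21.7% of all tested genes were. JG-98 itself gave 0 calls among the 6 in Empty and 0 in NeuT, where 0.339% and 3.01% of all tested genes were called, so 0 of 6 says little about the list.

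Of 12 inhibitors and turnover factors of the receptors, all tested, 4 were called higher and 1 lower in untreated NeuT, with a median log2 fold change of 0.14. Of all tested genes 21.2% were called higher and 20.8% lower, 42.0% in all, so 5 of 12 is near that share. ERRFI1, an inhibitor of the EGFR kinase domain, had 152 and 146 CPM in untreated Empty and 189 and 184 CPM in Empty with JG-98. It had 226 and 225 CPM in untreated NeuT and 308 and 325 CPM in NeuT with JG-98, so its 4 groups did not overlap. Its log2 fold change was 0.60 (adjusted p = 1.02e-07) between untreated NeuT and Empty, 0.49 (adjusted p = 4.76e-05) with JG-98 in NeuT and 0.32 (adjusted p = 0.0115) with JG-98 in Empty. The call of ERRFI1 in Empty was lost without untreated Empty replicate 1 (adjusted p = 0.143) or 2 (0.345), or without replicate 1 (0.238) or 2 (0.0579) of Empty with JG-98. Among ubiquitin ligases of the receptors, CBLC was 0.42 (adjusted p = 6.77e-05) and CBLB 0.35 (adjusted p = 0.0104) higher in untreated NeuT on the log2 scale. CBLB lost its call without untreated Empty replicate 2 (adjusted p = 0.107) or untreated NeuT replicate 1 (0.153). RNF41, a ubiquitin ligase of ERBB3, was 0.40 higher with JG-98 in NeuT (adjusted p = 0.00784), and this was lost without untreated NeuT replicate 1 (0.151) or 2 (0.0923) and in a fit of the 4 NeuT libraries alone (0.0608). In Empty cells RNF41 had a log2 fold change of 0.31 with JG-98 (adjusted p = 0.142). That difference passed without the filter (0.00816), with DESeq2 (0.0463), in a fit of the 4 Empty libraries alone (0.0162), and without replicate 1 (0.00431) or 2 (0.00436) of NeuT with JG-98. JG-98 gave 1 call higher and 0 lower among the 12 in Empty cells, where 0.339% of all tested genes were called, and 2 higher and 0 lower in NeuT cells, where 3.01% were. CBLB in NeuT had a log2 fold change of 0.38 with JG-98 (adjusted p = 0.0503). It passed with total counts (0.0496), without the filter (0.00136), with DESeq2 (0.0285), with the crossed replicate block (0.00258) and without replicate 1 of NeuT with JG-98 (0.00179). CBLC had 0.14 with JG-98 in NeuT (adjusted p = 0.309), which passed without that library (0.0325). In Empty it had 0.21 (adjusted p = 0.271), which passed without replicate 1 (0.0445) or 2 (0.0449) of NeuT with JG-98.

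Of 12 adaptors and proximal effectors, all tested, 5 were called higher and 2 lower in untreated NeuT, against 21.2% and 20.8% of all tested genes, with a median log2 fold change of 0.02. SHC1, an adaptor that links receptors to RAS, had 213 and 215 CPM in untreated Empty and 350 and 343 CPM in untreated NeuT libraries (log2 fold change 0.70, adjusted p = 1.22e-08). GRB7, which lies close to ERBB2 on chromosome 17, was 0.49 higher on the log2 scale (adjusted p = 0.00692), lost without untreated Empty replicate 2 (0.0942) or untreated NeuT replicate 2 (0.0756). VAV2, an exchange factor for small GTPases, fell by 0.41 on the log2 scale (adjusted p = 0.000209). With JG-98, 0 of the 12 were called in Empty and 1 in NeuT, against 0.339% and 3.01% of all tested genes. That gene, the adaptor GAB2, had a log2 fold change of 0.62 (adjusted p = 0.0190), lost in a fit of the 4 NeuT libraries alone (0.0792) and without untreated NeuT replicate 1 (0.160) or 2 (0.174) or replicate 2 of NeuT with JG-98 (0.146).

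Of 12 feedback and target genes of the ERK kinases, which act downstream of ERBB receptors, 11 were called higher in untreated NeuT and 0 lower, against 21.2% and 20.8% of all tested genes, with a median log2 fold change of 0.88. DUSP6, a phosphatase of ERK, had 14.0 and 14.4 CPM in untreated Empty and 160 and 152 CPM in untreated NeuT libraries. Its log2 fold change of 3.45 (adjusted p = 1.51e-15) was larger than that of any of the 10 ligands and receptors. SPRY1, an inhibitor of receptor tyrosine kinase signalling, was 2.26 higher on the log2 scale (adjusted p = 2.93e-06) from 42 and 50 counts in untreated Empty to 180 and 242 counts in untreated NeuT. DUSP5, a nuclear phosphatase of ERK, was 1.22 higher (adjusted p = 9.15e-07). EGR1, an immediate early transcription factor, was not called, at -0.54 (adjusted p = 0.254), but passed without robust estimation (0.0399) and in a fit of the 4 untreated libraries alone (0.00414). With JG-98 11 of 12 were called higher in NeuT than in Empty, against 21.7% of all tested genes.

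In Empty cells JG-98 gave 0 calls among the 12 ERK genes by edgeR, and in NeuT cells 4 were called higher. Of all tested genes 0.260% and 2.01% were called higher there. In NeuT 10 of the 12 log2 fold changes were positive and 2 negative. The 2 were SPRY1 at -0.61 (adjusted p = 0.211) and DUSP4 at -0.09 (adjusted p = 0.403), each with both treated libraries below both untreated ones. Without replicate 1 of NeuT with JG-98 SPRY1 stood at -1.02. With the crossed replicate block SPRY1 (-0.63, adjusted p = 0.0296) and EGR1 (0.75, adjusted p = 6.85e-12) passed. In Empty cells DUSP5 had a log2 fold change of 0.33 (adjusted p = 0.324), which passed without the filter on low counts (0.0191) and without replicate 1 (0.00861) or 2 (0.0104) of NeuT with JG-98. ETV5 in Empty had 0.22 (adjusted p = 0.256), which passed without either of those libraries (0.0489 and 0.0490). DUSP6 in NeuT had 0.21 with JG-98 (adjusted p = 0.0569), which passed without the filter (0.0334), with DESeq2 (0.0385), limma-voom (0.0481) or the replicate block (0.0492), and without replicate 2 of NeuT with JG-98 (0.0328). DUSP5 was 0.82 higher with JG-98 in NeuT on the log2 scale (adjusted p = 0.000777). SPRY4, a Sprouty inhibitor, was 0.45 higher (adjusted p = 0.0414). Its call was lost in a fit of the 4 NeuT libraries alone (0.163) and without any of the 7 libraries other than replicate 1 of NeuT with JG-98, with an adjusted p of 0.0700 to 0.283. ETV5, an ETS-family transcription factor, was 0.34 higher (adjusted p = 0.00994). Its call was lost in a fit of the 4 NeuT libraries alone (0.0621) and without untreated NeuT replicate 1 (0.133) or 2 (0.175) or replicate 2 of NeuT with JG-98 (0.0591).

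**Figure D5:**
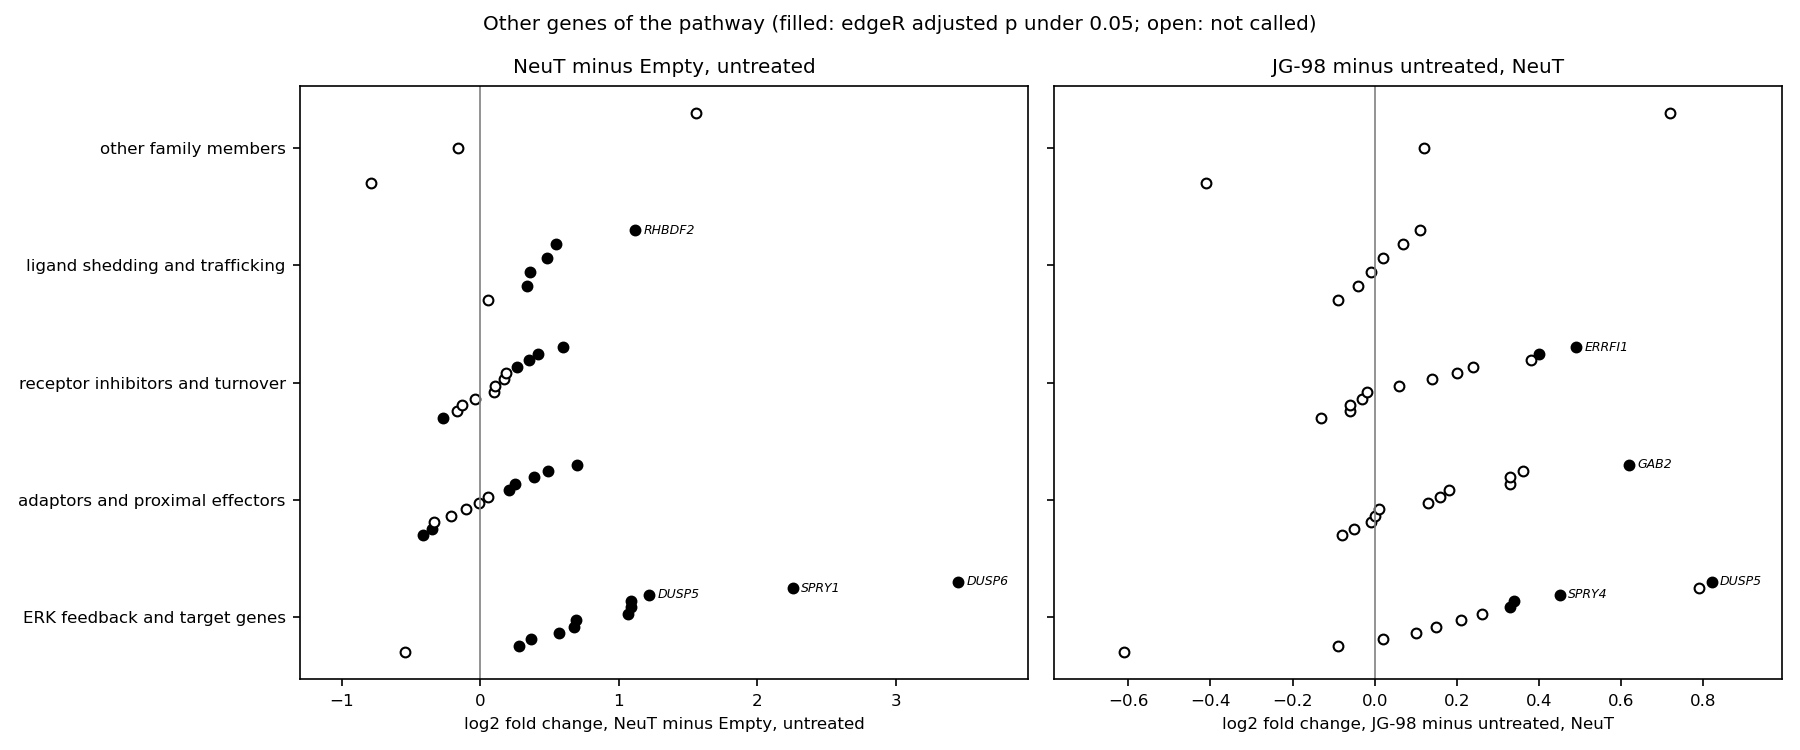
Fitted log2 fold change of each tested gene of the 5 pathway lists (points, grouped by list), between untreated NeuT and Empty on the left and between JG-98 and untreated in NeuT on the right; filled points passed an adjusted p under 0.05. In untreated NeuT the ERK feedback list had a median of 0.88 and the shedding list 0.42, and both had no gene called lower.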

How the data were processed

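Poly(A)-selected RNA of 8 MCF-10A libraries was sequenced, and samples were grouped by their titles. The 10 members and the lists of related genes were chosen with earlier results of these data known. The motifs were chosen with the promoter sequences in view. The authors deposited raw counts per gene with exon lengths (as featureCounts writes them, per the file headers), and columns matched to no sample numbered 0. They also deposited, for each line, log2 fold changes, mean log2 expression, test scores, p-values and adjusted p-values of JG-98 against no treatment, per the file headers. The submitters' processing notes name Trim Galore 0.5.0, FastQC 0.11.7, HISAT2 2.1.0, SAMtools 1.9, featureCounts 1.6.3, limma and GRCh38. Which annotation release was used, and how strand and multi-mapped reads were treated, is not given in the sources used here. Of 60617 identifiers, 42000 had a symbol in a table of gene names.

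Differences were tested on the deposited counts by edgeR 4.0.16 (R 4.3.3). The filter was filterByExpr (minimum count 10, total 15), libraries were scaled by TMM, and 1 robust quasi-likelihood model with 4 groups was fitted to all 8 libraries. Standard errors are the size of the log2 fold change divided by the square root of F. Comparisons share libraries, so they are not independent. Named beside the members were up to 3 called genes of each list with the largest change in untreated NeuT and in each JG-98 comparison, and the 3 nearest profiles among genes with a symbol and a mean of at least 50 counts, of which 1 gene is not reported here. ADAM10, ADAM17, TIMP3, EGR1, EGF, NRG2, NRG3, NRG4 and ERBB4 fall outside that rule and were named after their values were seen. Replicates were not identical. The chi-square per gene between replicates was 4.52 in untreated Empty, 8.20 in Empty with JG-98, 4.63 in untreated NeuT and 22.0 in NeuT with JG-98, so each counted as its own. Intervals for a count of 0 cover counting error only, because PCR copies of a molecule were not told apart. Scripts were tested on simulated counts. Alternatives were other scaling factors, other filters, DESeq2 1.42.0, limma-voom (limma 3.58.1), no robust estimation, the 4 libraries of a comparison alone, a replicate block and leaving out each library.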

Additional observations from a re-analysis of the deposited data

How the results depend on the processing

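Over the 17 planned settings the number of members called stayed at 6 to 8 between untreated NeuT and Empty and at 6 to 8 under JG-98, both within the range of 6 to 8 when single libraries were left out. With JG-98 in Empty the number was 0, and 1 in a fit of the 4 libraries compared, and 0 to 1 when single libraries were left out. With JG-98 in NeuT it was 4, but 5 with limma-voom, 5 without robust estimation, 2 in a fit of the 4 libraries compared and 1 to 8 when single libraries were left out. For the interaction it was 0, but 3 without the filter on low counts and 0 to 5 when single libraries were left out. The highest values, 8 and 5, came without replicate 1 of NeuT with JG-98; the cause was not tested. No called value of the members and the list genes recomputed under these settings changed sign.

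Over all genes, the 60 calls with JG-98 in Empty became 282 without the filter, 151 with DESeq2, 223 with the 4 libraries compared and 9 to 389 when single libraries were left out. The 533 calls in NeuT became 1000 without the filter, 183 with the 4 libraries compared and 134 to 2112 when single libraries were left out. The 1 interaction call became 2 with total counts, 138 without the filter, 26 with DESeq2, 3 without robust estimation and 1 to 751 when single libraries were left out. Called genes were higher in 50.5% of cases between untreated NeuT and Empty and 52.0% under JG-98, and with total counts in 40.7% and 41.0%; there the median of all genes was -0.084 and -0.076 on the log2 scale. Ranking by CPM without length changed 15 of 20 ranks of members in untreated cells.

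Replicate differences correlated between groups at an r of -0.101 to 0.244. The highest r was that of the pair of groups with JG-98, and the other 5 were under 0.1, so the numbers were not taken to pair the samples throughout. With the replicate number as a block, the members called were 8, 8, 0, 4 and 0 in the 5 comparisons. With the numbers of the treated NeuT pair crossed, chosen after seeing the data, 5 members and 912 genes were called with JG-98 in NeuT. BTC, at 3.93 to 6.37 CPM, and the shallower first replicate of Empty with JG-98 limit what can be seen of small changes.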
